A study of Drosophila melanogaster with 9 samples.

Results

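The genes described here are 10 Drosophila melanogaster genes of glial fate and of the glia of the cortex and neuropil: gcm, gcm2, repo, pnt, loco, htl, wrapper, zyd, alrm and Indy. They were named by role and no measured value entered the rule, but earlier results of these data were known when they were chosen. All 10 were among the 17421 genes of the deposited table, and 9 of them passed the filter on low levels. The study sequenced 3' ends of transcripts from central nervous systems dissected from 1st instar larvae kept at 25 °C, with 3 libraries of each of 3 genotypes. The elav5/fne double mutants carried deletion alleles of both elav and fne, the elav5 single mutants carried the deletion allele of elav, and Canton-S is a wild-type strain. Both mutants therefore carried the elav deletion. Larvae of every genotype were picked as viable homozygotes by a visible marker. How many larvae made up a library, their sex, the strain background of the mutants, and whether the libraries of a genotype came from separate dissections are not stated. The p-values therefore reflect only how far these libraries spread, which may be technical.

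Glia of the fly central nervous system arise mostly when precursor cells switch on gcm and its neighbour gcm2, which encode transcription factors that turn a neural precursor towards glia. They act briefly in the embryo and switch on repo, the homeodomain factor that nearly all lateral glia keep, together with pnt and loco. Mature glia then divide into forms. Cortex glia enclose the cell bodies of neurons. Astrocyte-like glia send fine processes into the neuropil and take up transmitter, ensheathing glia line the neuropil, and surface glia form the blood-brain barrier. The FGF receptor Htl guides the growth of neuropil and cortex glia. ELAV and FNE are related RNA-binding proteins known mainly from neurons.

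A level is given in normalised CPM: the authors' size-factor-corrected reads per gene, rescaled so that the average library sums to 1000000. Each read of this assay marks the 3' end of a transcript, and no division by gene length was made. Without molecular identifiers, more than 1 read can come from the same transcript. Changes are limma log2 differences of log2(normalised CPM + 1), which understates the change of low genes. A gene was tested where its mean over the 9 libraries was at least 1, which left 9384 genes, and it was called where the Benjamini-Hochberg adjusted p over all of them was under 0.05. gcm2 averaged 0.901 and was not tested. Errors are SDs over 3 libraries unless named otherwise, and coordinates are from the BDGP6.54 annotation of dm6, the build the submitters name.

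The libraries held 15241461 to 18822734 reads and 10712 to 11970 genes with a read. A count of 3 reads, the limit that a count of 0 allows, corresponded to 0.150 to 0.196 normalised CPM, for counting error only. elav was at 45.3 ± 22.6 normalised CPM in elav5/fne, 31.2 ± 9.26 in elav5 and 1643 ± 68.3 in Canton-S. The second deleted gene, fne, was at 375 ± 129.8 in elav5/fne, 4696 ± 219 in elav5 and 5041 ± 546 in Canton-S. Both genes were thus low in the libraries whose labels name their deletion. repo and all 7 neuron markers had reads in every library. Libraries differed in markers of other tissues. The summed level of 10 muscle genes spanned 1409 to 6672 normalised CPM in elav5/fne, 525 to 5926 in elav5 and 562 to 718 in Canton-S, and each of the 10 had reads in every genotype. The summed level of 8 gut genes spanned 21.1 to 1145 in elav5/fne, 8.81 to 548 in elav5 and 16.1 to 32.8 in Canton-S, with betaTry at 0 in every library. In each mutant genotype, 1 library had the most muscle and gut reads, replicate 3 of elav5/fne and replicate 1 of elav5. Other mutant libraries were also above every Canton-S library in muscle genes: elav5/fne replicates 1 and 2 (1409 and 3495.5) and elav5 replicate 2 (1774). In elav5/fne replicate 2 the gut genes were high too (254). Muscle level and genotype thus went partly together, so neither leaving out libraries nor a muscle covariate can fully separate them. Canton-S replicate 2 stood apart by larval serum protein and other fat body genes: the summed level of 7 fat body genes was 741 there, against 450.1 and 414 in the other Canton-S libraries, 205 to 398 in elav5/fne and 251 to 386 in elav5. Lsp1beta had 0, 112 and 0 normalised CPM in Canton-S replicates 1, 2 and 3. In elav5 replicate 3 the mean log2 level of 9 surface glia genes was -1.45 relative to Canton-S, against 0.18 and -0.28 in elav5 replicates 1 and 2. Calls that depend on any of these libraries are named with their results. The summed level of 7 neuron markers was 5066 to 6094 in elav5/fne, 8340 to 9778 in elav5 and 9324 to 9874 in Canton-S. These are bulk samples, so fewer cells of a type and less RNA per cell cannot be told apart.

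In elav5/fne against Canton-S the 10 genes did not move as a block. pnt, loco, htl and Indy rose, wrapper and zyd fell, and repo, gcm and alrm did not pass the test. The largest log2 change was in wrapper, which stood at 28.1% of its Canton-S level, and among the called genes the largest rise was in htl, at 2.32 times its Canton-S level. In all, limma called 6 of the 9 tested genes, 4 higher and 2 lower; DESeq2 called 7, as did limma under TMM scaling, and 3 were called without Canton-S replicate 2 or without elav5/fne replicate 3. Of all 9384 genes, 43.2% were called in this comparison, 25.8% higher and 17.5% lower. The libraries of both genotypes did not overlap for 7 of the 9, 5 with elav5/fne higher, against 58.3% of all genes (34.6% higher and 23.7% lower in elav5/fne). The median change of the 9 was 0.71 on the log2 scale, beside 0.15 over all tested genes. Much of the transcriptome moved in this comparison, so the count alone does not set these genes apart. The 6 called genes kept their direction in all 22 alternative analyses, other scalings included.

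**Figure D1:**
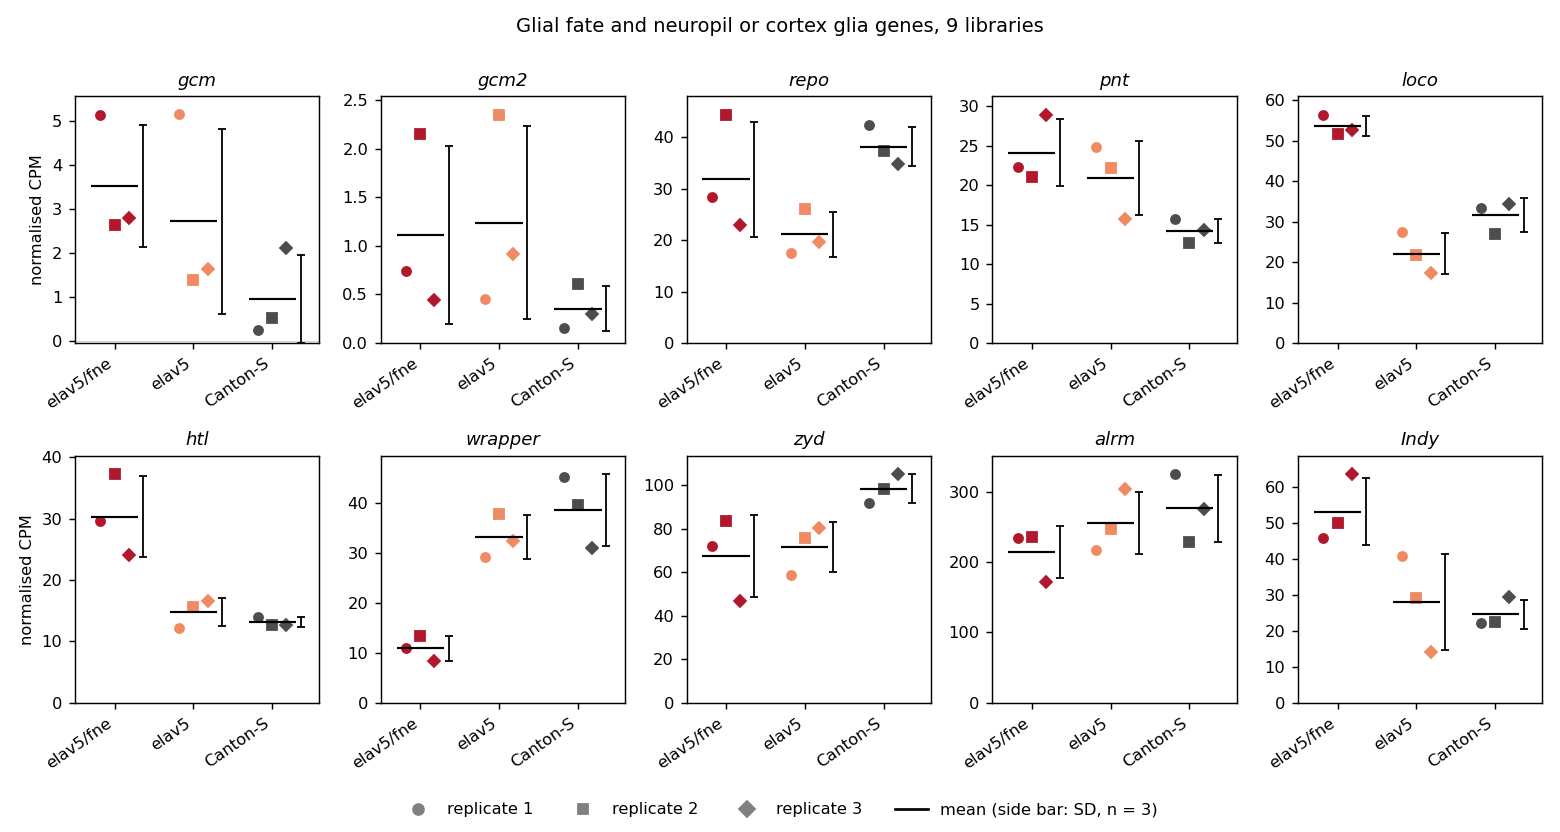
Level of each of the 10 genes in normalised CPM (vertical axis, a linear scale for each gene) in the elav5/fne, elav5 and Canton-S libraries (points, shaped by replicate; the line is the mean and the side bar the SD, n = 3). All 3 elav5/fne libraries lie below every other library for wrapper (8.37 to 13.3) and above every other library for loco (51.8 to 56.5) and htl (24.1 to 37.2).

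gcm and gcm2, the genes that start glial fate, had few reads, and in Canton-S they came close to the floor of 3 reads. gcm (FBgn0014179; chromosome arm 2L, positions 9579498 to 9581745, minus strand) had 5.13, 2.64 and 2.79 normalised CPM in elav5/fne, 5.15, 1.37 and 1.64 in elav5 and 0.2504, 0.503 and 2.10 in Canton-S. These rest on 83, 49 and 44 reads in elav5/fne, 80, 21 and 25 in elav5 and 5, 10 and 35 in Canton-S. The 3 elav5/fne libraries lay above the 3 Canton-S libraries, although Canton-S replicate 3, with 35 reads, came close to them. gcm missed the threshold in elav5/fne against Canton-S (log2 change 1.29, SE 0.47, adjusted p = 0.0503, 95% interval 0.23 to 2.34) and in elav5 against Canton-S (log2 change 0.91, adjusted p = 0.222). In elav5/fne it passed in 5 of 21 alternatives, among them without Canton-S replicate 3 (adjusted p = 0.0239), without elav5 replicate 1 (adjusted p = 0.0246), without both libraries with most muscle and gut reads (adjusted p = 0.0307) and with a pseudocount of 0.25 (log2 change 1.91, adjusted p = 0.0414). The 3' end of gcm lies inside CG31709 on the same strand, a gene that averaged 0.141 normalised CPM.

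gcm2 (FBgn0019809; chromosome arm 2L, positions 9608562 to 9612706, plus strand), which lies on the same arm as gcm, had 0.742, 2.15 and 0.444 normalised CPM in elav5/fne, 0.450, 2.35 and 0.917 in elav5 and 0.150, 0.604 and 0.300 in Canton-S. Its read numbers were 12, 40 and 7 in elav5/fne, 7, 36 and 14 in elav5 and 3, 12 and 5 in Canton-S. In each genotype replicate 2 was the highest, and the genotypes overlapped. Differences in gcm2 were not detectable at this depth.

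repo, the homeodomain factor that marks nearly all lateral glia, fell in elav5 and had intermediate values in elav5/fne. repo (FBgn0011701; chromosome arm 3R, positions 18236192 to 18239602, plus strand) had 28.4, 44.4 and 22.9 normalised CPM in elav5/fne, 17.6, 26.1 and 19.7 in elav5 and 42.4, 37.3 and 34.9 in Canton-S. The 3 elav5 libraries lay below the 3 Canton-S libraries, whereas elav5/fne replicate 2 was the highest of all 9 and elav5/fne replicate 3 was below every Canton-S library. In elav5 the mean was 55.3% of Canton-S (log2 change -0.84, SE 0.23, adjusted p = 0.0404). That call was lost in 10 of 22 alternative analyses, with adjusted p = 0.0506 by edgeR on the recovered reads and 0.0516 without both libraries with most muscle and gut reads. It was lost without elav5/fne replicate 1, elav5 replicates 1 or 3, or any 1 Canton-S library (adjusted p = 0.0559 to 0.134). repo did not pass in elav5/fne against Canton-S (log2 change -0.30, adjusted p = 0.321, 95% interval -0.83 to 0.22) or in elav5/fne against elav5 (log2 change 0.54, adjusted p = 0.114), where it passed without elav5/fne replicate 3 (adjusted p = 0.0414). The 3' end of repo overlaps that of the opposite-strand gene CG7156, which averaged 6.06 normalised CPM, and the sources used here do not say whether the counting used strand.

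pnt, an ETS transcription factor that acts below receptor tyrosine kinases and is switched on by gcm in glia, rose in elav5/fne. pnt (FBgn0003118; chromosome arm 3R, positions 23290231 to 23346167, minus strand) had 22.3, 21.04 and 28.9 normalised CPM in elav5/fne, 24.8, 22.2 and 15.6 in elav5 and 15.7, 12.7 and 14.3 in Canton-S. Every elav5/fne library was above every Canton-S library, and elav5 replicate 3 lay within the Canton-S range while the other elav5 libraries lay above it. pnt was 1.69 times its Canton-S level in elav5/fne (log2 change 0.71, SE 0.20, adjusted p = 0.0160). The elav5 mean lay close to that of elav5/fne but did not pass against Canton-S (log2 change 0.50, adjusted p = 0.117), and both mutants did not differ past the threshold (log2 change 0.21, 95% interval -0.23 to 0.65, adjusted p = 0.467). Within each mutant pnt was highest in the library with most muscle and gut reads. With the muscle level as a covariate the elav5/fne change was 0.30 (adjusted p = 0.322), and without both of those libraries it was 0.58 (adjusted p = 0.0378). The call was also lost without Canton-S replicate 2 (adjusted p = 0.0589), the library rich in fat body reads, and without elav5/fne replicate 3 alone (adjusted p = 0.0554), and without elav5 replicate 3 the elav5 change passed (adjusted p = 0.0377). The part of muscle RNA in this result was not tested further.

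pnt acts at the end of the EGF receptor pathway, in which the ligands spi, vn, Krn and grk bind Egfr, rho and S (Star) process ligands, aop (Yan) represses the targets of Pnt, edl modulates Pnt and Yan, and aos and kek1 are feedback inhibitors. Of the 11 genes of this list, all tested, 9 rose in elav5/fne against Canton-S, none fell and 2 (spi and kek1) did not pass, with a median log2 change of 1.10. Over all tested genes 25.8% rose, and the median was 0.15. Against Canton-S, elav5 had 4 that rose (rho, edl, aos and S) and 7 that did not pass by limma, with a median of 0.47. In that comparison limma called 15.2% of all tested genes, 8.17% higher, and the median was 0.02. DESeq2 called 7 of the 11 and edgeR 5. grk, which encodes a ligand best known from the oocyte, had 25.7, 25.6 and 21.6 normalised CPM in elav5/fne, 2.44, 1.24 and 0.851 in elav5 and 0.200, 0.352 and 0.599 in Canton-S (log2 change 4.20, adjusted p = 4.59e-06 in elav5/fne against Canton-S). edl was at 98.4 ± 17.00 normalised CPM in elav5/fne, 54.8 ± 8.31 in elav5 and 20.4 ± 3.72 in Canton-S, and it rose in both mutants (log2 change 2.21 in elav5/fne and 1.39 in elav5; adjusted p = 1.37e-05 and 0.00172). aos was at 105 ± 4.60 normalised CPM in elav5/fne, 77.2 ± 10.7 in elav5 and 48.5 ± 2.78 in Canton-S. S was at 123 ± 13.8 in elav5/fne, 83.3 ± 2.602 in elav5 and 59.7 ± 3.42 in Canton-S. The call of S in elav5 was lost without Canton-S replicates 1 or 2 (adjusted p = 0.0689 and 0.0558). Both rose in elav5/fne (log2 change 1.10, adjusted p = 6.45e-05 for aos; log2 change 1.02, adjusted p = 5.73e-05 for S). These genes act in many cells of the nervous system besides glia.

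loco encodes an RGS protein that speeds up GTP hydrolysis by G protein alpha subunits and is a target of gcm in glia. It rose in elav5/fne against both other genotypes. loco (FBgn0020278; chromosome arm 3R, positions 22619968 to 22639387, minus strand) had 56.5, 51.8 and 52.6 normalised CPM in elav5/fne, 27.4, 21.7 and 17.3 in elav5 and 33.5, 26.9 and 34.5 in Canton-S. The elav5/fne libraries were close to each other and above all 6 others. The fold over Canton-S was 1.70 (log2 change 0.75, SE 0.17, adjusted p = 0.00600) and that over elav5 was 2.42 (log2 change 1.26, SE 0.17, adjusted p = 0.000478). The elav5 mean was 69.9% of Canton-S and its libraries overlapped those of Canton-S (log2 change -0.51, adjusted p = 0.0743). The elav5 fall passed in 5 of 22 alternatives. Among them were DESeq2 (adjusted p = 0.0459), the muscle level as a covariate (adjusted p = 0.0320) and leaving out elav5 replicate 1 (adjusted p = 0.0285). With the muscle level as a covariate, the change in elav5/fne against Canton-S was 0.49 (adjusted p = 0.114), the 1 alternative of 22 in which that call was lost.

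Of 6 G protein genes that act with Loco or beside it, 1 rose in elav5/fne against Canton-S, 2 fell and 3 did not pass, with a median log2 change of 0.21. That is 3 of 6 called, against 43.2% of all genes. Galphai encodes the inhibitory alpha subunit that Loco binds and that also acts in neuroblast division. It was at 235 ± 11.4 normalised CPM in elav5/fne, 77.4 ± 6.50 in elav5 and 63.3 ± 9.35 in Canton-S (log2 change 1.89, adjusted p = 4.72e-06 in elav5/fne against Canton-S). Galphao, an alpha subunit abundant in neurons, was at 1848 ± 225 in elav5/fne, 3119 ± 358 in elav5 and 3084 ± 102 in Canton-S (log2 change -0.75, adjusted p = 0.000794). The beta subunit gene Gbeta13F was at 3903 ± 349 in elav5/fne, 5702 ± 667 in elav5 and 6097 ± 143 in Canton-S (log2 change -0.65, adjusted p = 0.00127). pins, which binds Galphai, did not pass (log2 change 0.43, adjusted p = 0.0609; 0.0287 without elav5/fne replicate 3). Between elav5 and Canton-S, limma called 0 of the 6, where 15.2% of all genes were called. By limma the unadjusted p was under 0.05 for 2. edgeR and DESeq2 each called 0 as well, with an unadjusted p under 0.05 for 0 by edgeR and 2 by DESeq2.

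htl, the FGF receptor of glia and of mesoderm, rose in elav5/fne and did not pass in elav5. htl (FBgn0010389; chromosome arm 3R, positions 18045216 to 18052984, minus strand) had 29.7, 37.2 and 24.1 normalised CPM in elav5/fne, 12.2, 15.5 and 16.5 in elav5 and 14.02, 12.6 and 12.6 in Canton-S. The lowest elav5/fne library was above the highest library of either other genotype. The fold was 2.32 over Canton-S (log2 change 1.13, SE 0.18, adjusted p = 0.000877) and 2.06 over elav5 (log2 change 0.98, SE 0.18, adjusted p = 0.00309). Both calls held in all 22 alternatives. With the muscle level as a covariate the change against Canton-S was 1.41 (adjusted p = 0.00149). Among the elav5/fne libraries htl was lowest in replicate 3, the library with most muscle reads. The part of muscle RNA in this result was not tested further. The elav5 change against Canton-S was 0.15 (95% interval -0.26 to 0.56, adjusted p = 0.612).

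The FGF pathway around htl moved in both directions. Of 12 tested genes, 4 rose in elav5/fne against Canton-S (bnl, sty, pyr and stumps) and 3 fell (ths, Raf and csw). The other 5 did not pass, and the median log2 change was -0.12. That is 7 of 12 called, against 43.2% of all genes. Pyr and Ths are the ligands of Htl. pyr was at 52.9 ± 1.36 normalised CPM in elav5/fne, 37.01 ± 4.88 in elav5 and 30.1 ± 2.35 in Canton-S (log2 change 0.80, adjusted p = 0.000713 in elav5/fne against Canton-S). ths was at 45.6 ± 8.59 normalised CPM in elav5/fne, 52.9 ± 1.09 in elav5 and 74.1 ± 5.47 in Canton-S (log2 change -0.70, adjusted p = 0.00270). The ligands of this receptor thus moved in opposite directions. bnl, the ligand of the other fly FGF receptor, was at 69.7 ± 4.67 normalised CPM in elav5/fne, 37.7 ± 2.44 in elav5 and 28.2 ± 4.32 in Canton-S (log2 change 1.28, adjusted p = 5.36e-05). stumps, the adaptor of both FGF receptors, rose by 0.44 on the log2 scale (adjusted p = 0.0390). It was singled out after its values were seen, and its call was not followed over the fits that left out libraries. sty, a feedback inhibitor of receptor tyrosine kinase signalling, was at 1116 ± 79.8 in elav5/fne, 1022 ± 28.1 in elav5 and 585 ± 88.04 in Canton-S, and rose in both mutants (log2 change 0.94, adjusted p = 0.000138 in elav5/fne; log2 change 0.81, adjusted p = 0.00231 in elav5). In elav5, sty was the 1 gene of the list that rose against Canton-S and ths the 1 that fell (log2 change -0.48, adjusted p = 0.0452); the call of ths was lost in 7 of the 9 fits that left out 1 library, all but those without elav5/fne replicates 1 or 3 (adjusted p = 0.0720 to 0.144). That is 2 of 12 called in elav5 against Canton-S, where 15.2% of all genes were called. btl was not analysed here.

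wrapper, a cell-surface immunoglobulin protein of midline and cortex glia that holds these cells to neurons, fell in elav5/fne and did not pass in elav5. wrapper (FBgn0025878; chromosome arm 2R, positions 22379637 to 22382675, plus strand) had 10.9, 13.3 and 8.37 normalised CPM in elav5/fne, 29.2, 37.9 and 32.3 in elav5 and 45.2, 39.6 and 31.03 in Canton-S. The elav5/fne libraries did not overlap either other genotype, and those of elav5 and Canton-S overlapped each other. The mean was 10.9 ± 2.49 in elav5/fne, 33.1 ± 4.39 in elav5 and 38.6 ± 7.14 in Canton-S. The change was -1.74 on the log2 scale against Canton-S (SE 0.20, adjusted p = 0.000103) and -1.54 against elav5 (SE 0.20, adjusted p = 0.000356). Both calls held in all 22 alternatives, and with the muscle level as a covariate the change against Canton-S was -1.60. In elav5 against Canton-S the change was -0.21 (95% interval -0.65 to 0.24, adjusted p = 0.508).

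zyd, the sodium, potassium and calcium exchanger that cortex glia need to control calcium, fell in elav5/fne. zyd (FBgn0265767; chromosome X, positions 23022898 to 23035550, plus strand) had 72.1, 83.3 and 46.8 normalised CPM in elav5/fne, 58.4, 75.7 and 80.1 in elav5 and 91.6, 98.2 and 105 in Canton-S. All 6 mutant libraries lay below the 3 Canton-S libraries, and the lowest of each mutant was its library with most muscle and gut reads. The elav5/fne mean was 68.6% of Canton-S (log2 change -0.57, SE 0.20, adjusted p = 0.0444), and the elav5 mean was 72.6% (log2 change -0.47, adjusted p = 0.154). The elav5/fne call held in 13 of 22 alternatives, and it was lost without elav5/fne replicates 1 or 3, elav5 replicate 2 or any 1 Canton-S library (adjusted p = 0.0571 to 0.121). The elav5 change passed without elav5/fne replicate 3 (adjusted p = 0.0478). Without both libraries with most muscle and gut reads the change was -0.34 (adjusted p = 0.0479), and with the muscle level as a covariate it was -0.17 (adjusted p = 0.600). The third cortex glia marker on the list, the cytochrome P450 gene Cyp4g15, was at 101 ± 16.7 in elav5/fne, 109 ± 15.4 in elav5 and 99.02 ± 12.5 in Canton-S and did not pass in either mutant (adjusted p = 0.934 in elav5/fne and 0.580 in elav5). The 3 cortex glia markers thus had 3 different outcomes in elav5/fne, a large fall, a smaller fall and no call.

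Of 5 other calcium exchanger and pump genes that were tested, 3 fell in elav5/fne against Canton-S, none rose and 2 did not pass. Their median log2 change was -0.67. Over all tested genes 43.2% were called, 17.5% lower. Nckx30C, an exchanger known from photoreceptors and the nervous system, was at 556 ± 127 normalised CPM in elav5/fne, 1599.7 ± 149 in elav5 and 2228 ± 199.9 in Canton-S (log2 change -2.02, adjusted p = 1.39e-05). CG1090, of the same exchanger family, was at 21.4 ± 2.22 in elav5/fne, 63.4 ± 6.23 in elav5 and 75.1 ± 3.44 in Canton-S (log2 change -1.77, adjusted p = 5.23e-06). The sodium and calcium exchanger gene Calx was at 24.7 ± 1.93 in elav5/fne, 44.3 ± 4.45 in elav5 and 40.03 ± 4.65 in Canton-S (log2 change -0.67, adjusted p = 0.00266). SERCA, the calcium pump of the endoplasmic reticulum and of muscle, did not pass (log2 change 0.97, adjusted p = 0.0773), although it did without elav5/fne replicate 1, elav5 replicate 1 or elav5 replicate 3 (adjusted p = 0.0228 to 0.0459). For elav5 against Canton-S, limma called 0 of the 5, where 15.2% of all genes were called. By limma the unadjusted p was under 0.05 for 1, Nckx30C. edgeR called 0 and DESeq2 called 1.

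alrm, a leucine-rich repeat gene whose expression marks astrocyte-like glia, was not called by limma in any comparison. alrm (FBgn0039332; chromosome arm 3R, positions 25381065 to 25382781, minus strand) had 235, 236 and 171 normalised CPM in elav5/fne, 217, 247 and 304 in elav5 and 325, 229 and 275 in Canton-S. The genotypes overlapped, and elav5/fne replicate 3 was the lowest of the 9 libraries. The change was -0.37 in elav5/fne against Canton-S (95% interval -0.77 to 0.03, adjusted p = 0.122) and -0.11 in elav5 against Canton-S (95% interval -0.51 to 0.29, adjusted p = 0.706). In elav5/fne against Canton-S it passed in 2 of 22 alternatives, under TMM scaling (log2 change -0.51, adjusted p = 0.0431) and by DESeq2 (log2 change -0.49, adjusted p = 0.0192). alrm lies inside Fur1 on the same strand. Fur1 was at 174 ± 8.28 normalised CPM in elav5/fne, 251 ± 38.4 in elav5 and 216 ± 25.1 in Canton-S, and the sources used here do not say how reads were divided between both genes, so the level of alrm is uncertain.

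Indy, the plasma membrane citrate transporter whose mutants were first known for long life, rose in elav5/fne. Indy (FBgn0036816; chromosome arm 3L, positions 18828632 to 18846267, minus strand) had 45.8, 49.9 and 63.6 normalised CPM in elav5/fne, 40.7, 29.1 and 14.2 in elav5 and 22.2, 22.4 and 29.3 in Canton-S. All 3 elav5/fne libraries were above all 6 others. The elav5 libraries were spread more widely than those of the other genotypes, with replicate 1 above and replicate 3 below every Canton-S library. The fold was 2.15 over Canton-S (log2 change 1.07, SE 0.32, adjusted p = 0.0215) and 1.90 over elav5 (log2 change 1.00, SE 0.32, adjusted p = 0.0389). Indy is also expressed in gut and fat body, and within each mutant its highest library was the one with most muscle and gut reads. With the muscle level as a covariate the change against Canton-S was 0.25 (adjusted p = 0.483), and without both of those libraries it was 0.94 (adjusted p = 0.0184). The call against Canton-S held in 17 of 22 alternatives, and that against elav5 in 8 of 22. The first was lost without elav5/fne replicates 2 or 3 or Canton-S replicates 1 or 2 (adjusted p = 0.0502 to 0.0695), and the second without any 1 library except elav5 replicate 1 (adjusted p = 0.0537 to 0.109).

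**Figure D2:**
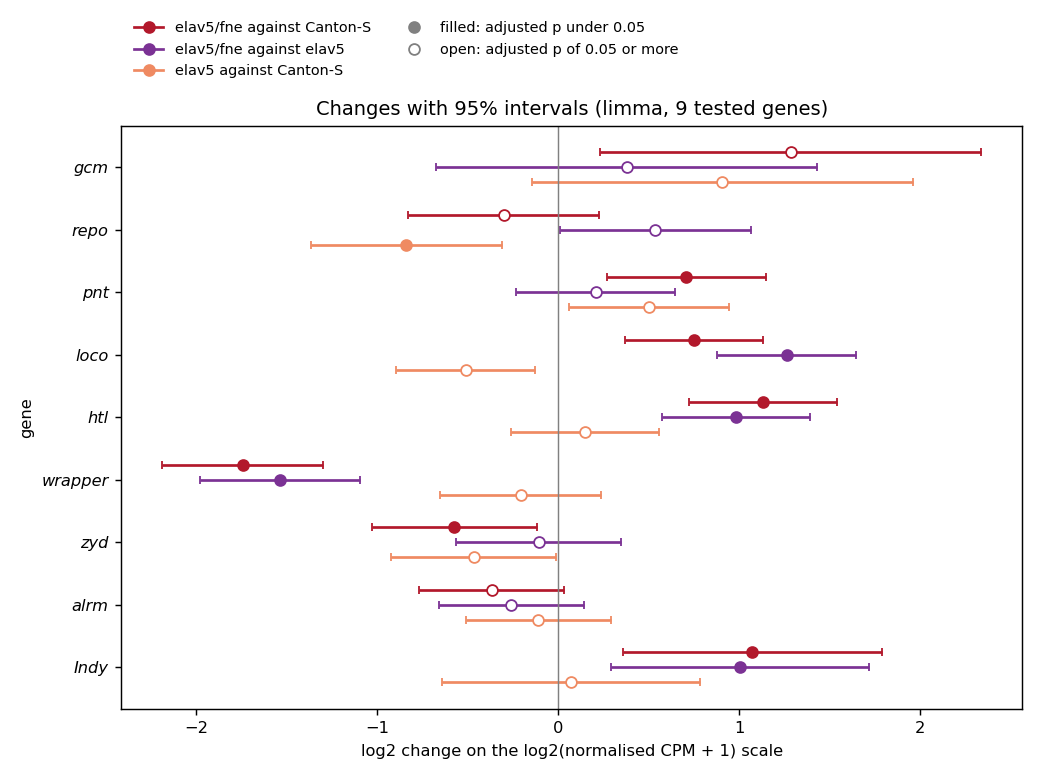
Log2 changes of the 9 tested genes (horizontal axis, on the log2(normalised CPM + 1) scale) with 95% limma intervals, for elav5/fne against Canton-S, elav5/fne against elav5 and elav5 against Canton-S; filled points have an adjusted p under 0.05. wrapper lies farthest to the left in both comparisons of elav5/fne (-1.74 and -1.54), and repo is the 1 filled point of elav5 against Canton-S (-0.84).

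In elav5 against Canton-S, 1 of the 9 tested genes was called, repo, which fell, and none rose. Of all tested genes 15.2% were called in this comparison, 8.17% higher and 7.04% lower. The libraries of both genotypes did not overlap for 2 of the 9, repo and zyd, both with elav5 lower, against 35.6% of all genes, 18.1% with elav5 higher and 17.4% with elav5 lower. The median log2 change of the 9 was -0.11, beside 0.02 over all tested genes. By limma 4 of the 9 had an unadjusted p under 0.05. edgeR called 0 of the 9, with an unadjusted p under 0.05 for 3, and DESeq2 called 2, repo and loco.

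In elav5/fne against elav5, where the genotypes differ by the fne deletion as labelled, loco, htl and Indy rose and wrapper fell, so 4 of the 9 were called. Of all tested genes 30.8% were called in this comparison, 18.5% higher and 12.3% lower. The libraries did not overlap for the same 4 genes, 3 with elav5/fne higher, against 43.8% of all genes, 26.8% with elav5/fne higher. The median log2 change was 0.38 over the 9 and 0.15 over all tested genes. pnt and zyd, called in elav5/fne against Canton-S, were not called here (log2 change 0.21 for pnt and -0.11 for zyd; adjusted p = 0.467 and 0.728). The comparisons share libraries and are given side by side, not as independent evidence.

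Other genes of these glia also moved in both directions. Of 13 tested genes of the same glia that are not among the 10, 4 rose in elav5/fne against Canton-S (Inx2, drpr, Ncc69 and ogre), 4 fell (bnb, Eaat2, rumpel and Gat) and 5 did not pass. That is 8 of 13 called, against 43.2% of all genes, 25.8% higher and 17.5% lower. Their median log2 change was -0.05, beside 0.15 over all tested genes. In elav5 against Canton-S, nrv2 rose, Ncc69 and ogre fell, and 10 did not pass. That is 3 of 13 called, against 15.2% of all genes. All 13 are named or counted here; those beyond the 4 with the smallest p were chosen after their values were seen.

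The pan-glial genes nrv2, a sodium pump subunit, and bnb, an early glial gene, did different things. nrv2 was at 494 ± 48.3 normalised CPM in elav5/fne, 764 ± 148 in elav5 and 422 ± 19.2 in Canton-S, and rose in elav5 (log2 change 0.84, adjusted p = 0.00555) but did not pass in elav5/fne (log2 change 0.23, adjusted p = 0.226), where it did with the muscle level as a covariate (log2 change 0.54, adjusted p = 0.0219). It fell in elav5/fne against elav5 (log2 change -0.61, adjusted p = 0.0102). bnb was at 82.2 ± 10.6 normalised CPM in elav5/fne, 117 ± 16.1 in elav5 and 142 ± 5.63 in Canton-S, and fell in elav5/fne against both others (log2 change -0.78, adjusted p = 0.000889 against Canton-S; log2 change -0.50, adjusted p = 0.0146 against elav5).

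Among astrocyte-like markers, Gat, the GABA transporter, fell in elav5/fne. Gat had 560.4, 612 and 459.8 normalised CPM in elav5/fne, 576, 780.3 and 803 in elav5 and 904, 757 and 895 in Canton-S (log2 change -0.65, adjusted p = 0.00726 in elav5/fne against Canton-S), and with the muscle level as a covariate its change was -0.32 (adjusted p = 0.164). Eaat1, which encodes a glutamate transporter, was at 255 ± 27.5 in elav5/fne, 359.6 ± 68.04 in elav5 and 262 ± 19.6 in Canton-S, with no call against Canton-S in elav5/fne (log2 change -0.05, adjusted p = 0.822) or in elav5 (log2 change 0.44, adjusted p = 0.0753), although the elav5 change passed in 4 of 22 alternatives. Eaat1 fell in elav5/fne against elav5 (log2 change -0.48, adjusted p = 0.0328), a call that held in 13 of 22 alternatives and was lost without any 1 elav5/fne library, elav5 replicates 2 or 3 or Canton-S replicate 3 (adjusted p = 0.0515 to 0.0988). Glutamine synthetase gene Gs2 was at 1472 ± 197 in elav5/fne, 1885 ± 606 in elav5 and 1608 ± 73.6 in Canton-S and was not called (log2 change -0.13, adjusted p = 0.596). Ebony, encoded by e, couples beta-alanine to amines in glia, and e, which was not placed in any 1 glial form, was not called either (log2 change -0.36, adjusted p = 0.244). Of the 4 tested astrocyte-like markers, alrm, Gat, Eaat1 and Gs2, 1 fell, none rose and 3 did not pass. Ntl, a neurotransmitter transporter-like gene, was at 0 to 1.36 normalised CPM and was not tested.

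The ensheathing glia markers split. Eaat2, a transporter of aspartate and taurine, had 44.3, 44.2 and 35.1 normalised CPM in elav5/fne, 74.5, 80.4 and 72.7 in elav5 and 72.2, 67.99 and 70.4 in Canton-S, and fell with no overlap (log2 change -0.76, adjusted p = 0.000572 in elav5/fne against Canton-S). rumpel, a sodium-coupled transporter gene, was at 69.8 ± 13.3 in elav5/fne, 119.6 ± 26.9 in elav5 and 117 ± 3.89 in Canton-S and fell (log2 change -0.76, adjusted p = 0.00827); with the muscle level as a covariate its change was -0.30 (adjusted p = 0.184). drpr, the engulfment receptor that glia use to clear neuronal debris, had 61.4, 56.9 and 52.01 normalised CPM in elav5/fne, 40.97, 53.01 and 46.4 in elav5 and 31.5, 40.3 and 41.6 in Canton-S and rose (log2 change 0.58, adjusted p = 0.00943). So 2 transporters of this form fell while the receptor rose.

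The gap junction genes Inx2 and ogre and the cation-chloride cotransporter gene Ncc69 rose in elav5/fne. Inx2 had 204, 194 and 176 normalised CPM in elav5/fne, 104, 104 and 92.6 in elav5 and 97.5, 96.02 and 89.7 in Canton-S (log2 change 1.01, adjusted p = 3.53e-05 in elav5/fne against Canton-S). ogre was at 434 ± 43.00 in elav5/fne, 228 ± 16.1 in elav5 and 336 ± 14.04 in Canton-S. Ncc69 was at 64.8 ± 2.44 in elav5/fne, 24.2 ± 6.52 in elav5 and 43.2 ± 1.75 in Canton-S. ogre and Ncc69 fell in elav5 (log2 change -0.56, adjusted p = 0.00636 for ogre; log2 change -0.85, adjusted p = 0.0145 for Ncc69) and rose in elav5/fne (log2 change 0.36, adjusted p = 0.0147 for ogre; log2 change 0.57, adjusted p = 0.0287 for Ncc69). Against elav5, elav5/fne was higher for both (log2 change 0.92, adjusted p = 0.000120 for ogre; log2 change 1.42, adjusted p = 0.000347 for Ncc69). Under TMM scaling neither rise against Canton-S passed (adjusted p = 0.0982 for ogre and 0.0761 for Ncc69), and with the muscle level as a covariate that of Ncc69 was 0.26 (adjusted p = 0.401). The rise of Ncc69 against Canton-S was lost without elav5/fne replicates 1 or 2 or any 1 Canton-S library (adjusted p = 0.0594 to 0.0801), and the rise of ogre without elav5/fne replicates 1 or 2 or Canton-S replicate 3 (adjusted p = 0.0501 to 0.0603). The fall of Ncc69 in elav5 was lost without Canton-S replicate 1 (adjusted p = 0.0600).

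**Figure D3:**
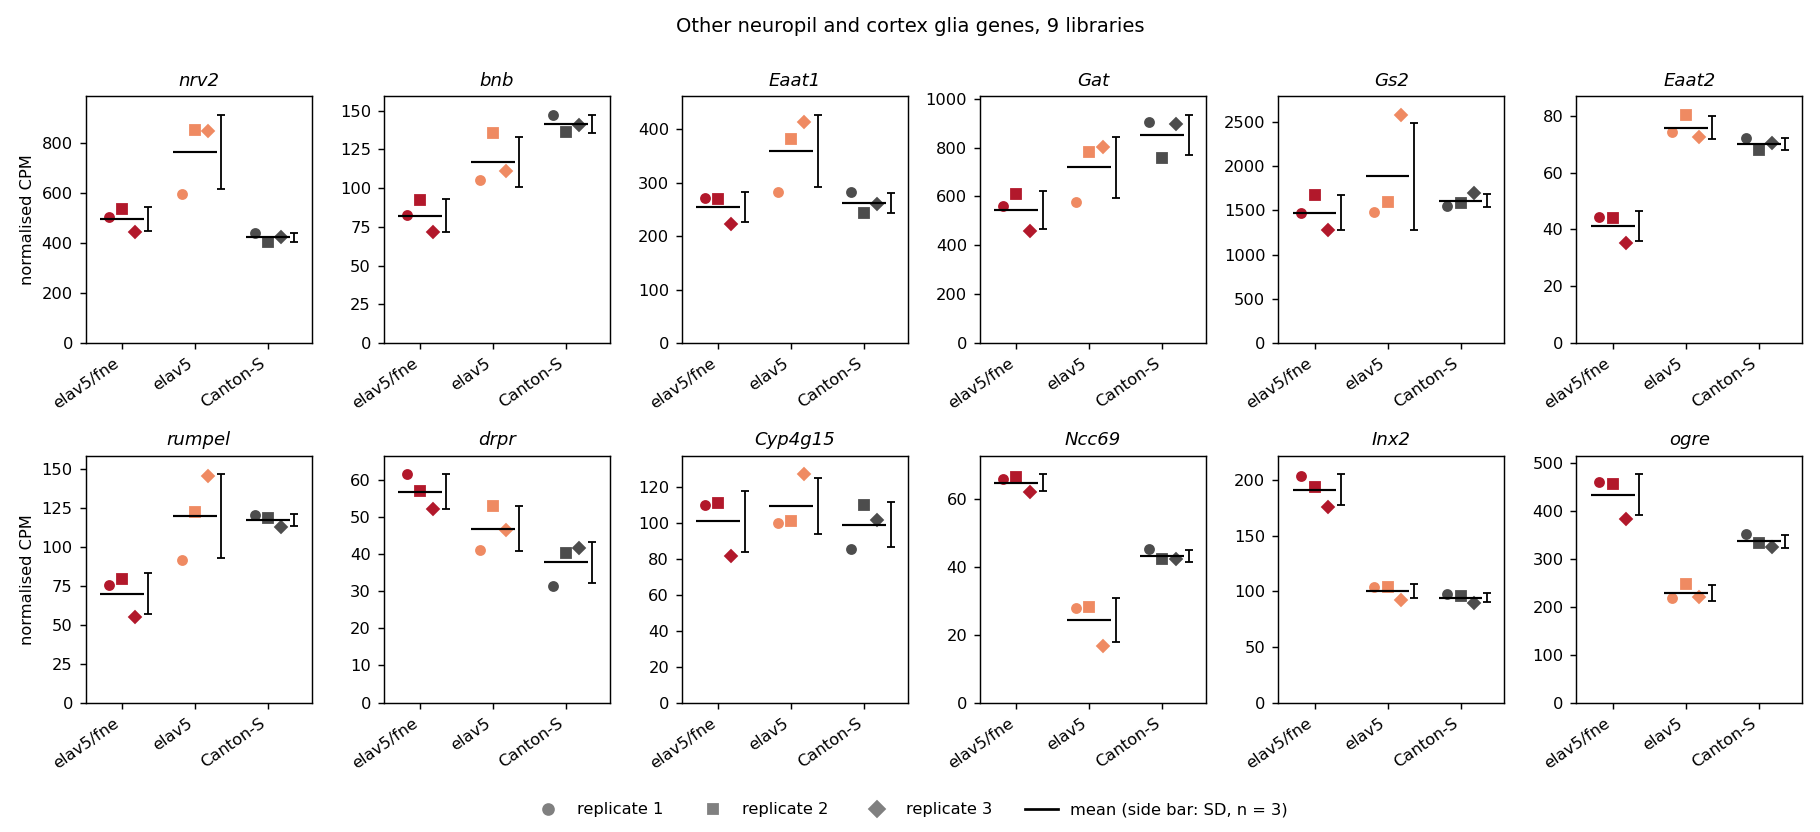
Level in normalised CPM (vertical axis, a linear scale for each gene) of 12 of the 13 other tested neuropil and cortex glia genes in the elav5/fne, elav5 and Canton-S libraries (points, shaped by replicate; line and side bar, mean and SD, n = 3). The elav5/fne libraries lie below all others for Eaat2 and above all others for Inx2, Ncc69 and ogre, and for ogre and Ncc69 the elav5 libraries are the lowest.

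Surface glia, a different form that could share the samples, were tested by 9 markers. In elav5/fne against Canton-S 2 rose (Gli and svp), 1 fell (jeb) and 6 did not pass. That is 3 of 9 called, against 43.2% of all genes. In elav5 against Canton-S 1 fell (Mdr65) and 8 did not pass, where 15.2% of all genes were called. Gli, a septate junction protein of the barrier, was at 16.3 ± 2.89 normalised CPM in elav5/fne, 11.6 ± 2.33 in elav5 and 7.54 ± 1.63 in Canton-S (log2 change 1.02, adjusted p = 0.00355 in elav5/fne against Canton-S). jeb, a secreted ligand that neurons also make, was at 485 ± 57.3 in elav5/fne, 1215 ± 159.7 in elav5 and 1202 ± 145 in Canton-S (log2 change -1.31, adjusted p = 5.81e-05). The nuclear receptor gene svp was at 69.3 ± 10.02 in elav5/fne, 59.02 ± 12.4 in elav5 and 46.7 ± 0.415 in Canton-S (log2 change 0.55, adjusted p = 0.0213). Mdr65, an efflux transporter of the barrier, was at 192 ± 26.1 in elav5/fne, 153 ± 56.6 in elav5 and 283 ± 27.3 in Canton-S (log2 change -0.95, adjusted p = 0.0329 in elav5 against Canton-S). In elav5 replicate 3, the library low in surface glia markers, Mdr65 had 90.9 normalised CPM, against 168 and 201 in elav5 replicates 1 and 2. vkg, a collagen gene, had 1.57 there, against 72.6 and 18.3. The Mdr65 call in elav5 held without this library, and the part of its makeup was not tested further. With the muscle level as a covariate, Gli (adjusted p = 0.0729) and svp (adjusted p = 0.190) did not pass. The call of svp was lost under TMM scaling (adjusted p = 0.0645) and without elav5/fne replicate 2 or any 1 Canton-S library (adjusted p = 0.0527 to 0.0849). That of Mdr65 in elav5 was lost without any 1 Canton-S library (adjusted p = 0.0720 to 0.104). It was also lost with no filter (adjusted p = 0.0554) and in a fit of only the 2 genotypes compared (adjusted p = 0.0529). In elav5/fne Mdr65 passed without elav5 replicate 3 (adjusted p = 0.00760).

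Several regulators of neural fate rose in elav5/fne, led by ttk and N. Of 7 tested genes on this list, 4 rose in elav5/fne against Canton-S, 1 fell (dac) and 2 did not pass. Their median log2 change was 0.90. That is 5 of 7 called, against 43.2% of all genes. In elav5 against Canton-S 1 rose (nerfin-1) and 6 did not pass, where 15.2% of all genes were called. ttk, whose repressor proteins block neuronal genes in glia and other cells, had 409, 391 and 413 normalised CPM in elav5/fne, 33.7, 18.02 and 14.99 in elav5 and 18.98, 18.4 and 10.8 in Canton-S (log2 change 4.61, adjusted p = 3.42e-06 in elav5/fne against Canton-S). N, the Notch receptor, had 332, 323 and 309 in elav5/fne, 50.9, 55.2 and 39.1 in elav5 and 33.2, 38.95 and 34.99 in Canton-S (log2 change 3.14, adjusted p = 5.25e-07). For both genes the elav5/fne libraries were far above the others. nerfin-1, a zinc finger factor that keeps neurons differentiated, was at 16.6 ± 3.78 in elav5/fne, 8.47 ± 0.615 in elav5 and 3.86 ± 1.13 in Canton-S (log2 change 1.86, adjusted p = 0.000211). tll, an orphan nuclear receptor of the brain, was at 11.6 ± 1.38 in elav5/fne, 5.72 ± 0.794 in elav5 and 5.88 ± 1.82 in Canton-S (log2 change 0.90, adjusted p = 0.0118), and with the muscle level as a covariate tll did not pass (log2 change 0.59, adjusted p = 0.181). The call of nerfin-1 in elav5 was lost without elav5 replicates 1 or 3 or Canton-S replicate 1 (adjusted p = 0.0528 to 0.0768). Dl and esg were not analysed here.

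Markers of neurons and neuroblasts moved at the same time. Of 7 tested neuron markers, 6 fell in elav5/fne against Canton-S and 1 rose, Syb, a synaptobrevin that is not confined to neurons (log2 change 1.09, adjusted p = 0.000887). The largest fall was in cpx, which encodes the SNARE-binding complexin (log2 change -1.27, adjusted p = 9.97e-06), and the calcium sensor gene Syt1 fell by a log2 change of -0.79 (adjusted p = 0.000165). Of 8 neuroblast markers, 7 rose and pros did not pass, with a median log2 change of 1.85. Over all tested genes 25.8% rose and 17.5% fell. ase was at 62.3 ± 7.03 normalised CPM in elav5/fne, 4.64 ± 0.902 in elav5 and 4.17 ± 1.79 in Canton-S (log2 change 3.67, adjusted p = 6.94e-06), and mira was at 114 ± 18.97 in elav5/fne, 22.2 ± 3.80 in elav5 and 24.7 ± 3.82 in Canton-S (log2 change 2.15, adjusted p = 1.49e-05). Neuroblasts also express N and Galphai, and the part of these cells in the changes of the glial genes was not tested.

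**Figure D4:**
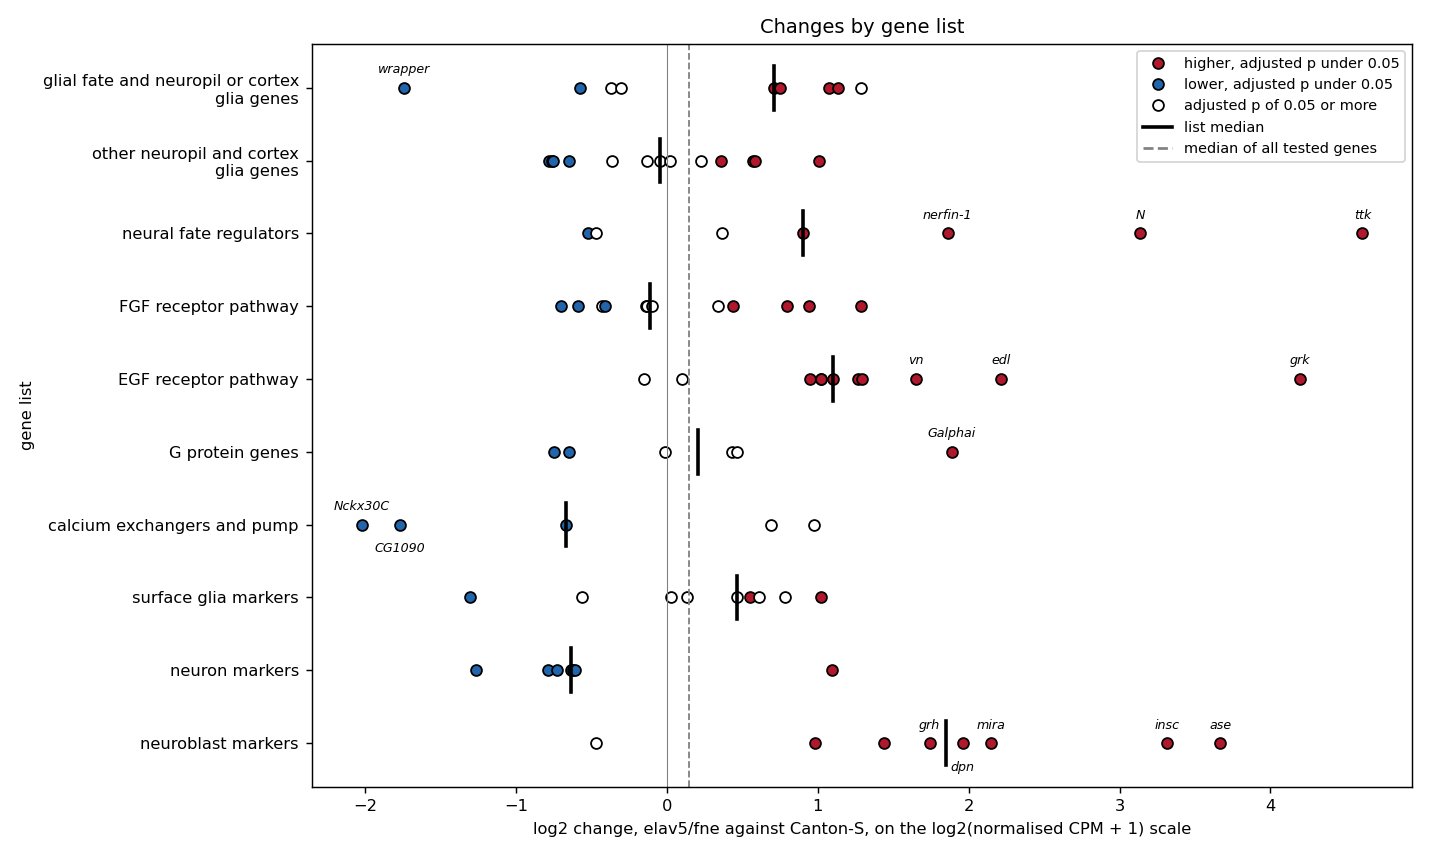
Log2 change in elav5/fne against Canton-S (horizontal axis, on the log2(normalised CPM + 1) scale) of each tested gene (points) of 10 lists (rows); filled points have an adjusted p under 0.05, black bars are list medians and the dashed line is the median of all tested genes, 0.15. The glial fate and neuropil or cortex glia genes spread from -1.74 to 1.29 and the other neuropil and cortex glia genes from -0.78 to 1.01, while the neuroblast list has a median of 1.85.

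Within each mutant, several glial genes were highest or lowest in the library with most muscle and gut reads. The share of all genes with such a pattern was not counted, so this does not set these genes apart. The muscle list, averaged over its genes and set against the Canton-S mean, stood at log2 values of 1.21, 2.42 and 3.34 in the elav5/fne libraries and 3.15, 1.37 and -0.20 in the elav5 libraries. Indy and pnt were highest, and repo, zyd and alrm lowest, in the library of each mutant with most muscle reads. gcm2, which had few reads, was lowest there too. Indy followed the order of the muscle list within each mutant. zyd ran in the inverse order of the muscle list in elav5 but not in elav5/fne, and repo did so in neither mutant. In elav5/fne replicate 2, which was second in muscle level in its genotype, repo (44.4 normalised CPM) and zyd (83.3) were the highest of the elav5/fne libraries. wrapper and htl were each lowest in those libraries as well, but the 3 elav5/fne libraries kept apart from all others for both genes. The summed level of 8 hemocyte genes, 57.6 to 69.7 normalised CPM in elav5/fne, 38.1 to 62.5 in elav5 and 53.2 to 66.3 in Canton-S, overlapped between genotypes. Their mean log2 levels did not overlap, at 2.57, 2.20 and 2.76 in elav5/fne against 2.05, 1.85 and 2.17 in Canton-S. Of 7 tested hemocyte genes, 2 rose in elav5/fne against Canton-S, where 43.2% of all genes were called. They were the GATA factor gene srp (log2 change 1.43, adjusted p = 0.0249) and the receptor gene NimC1 (log2 change 1.31, adjusted p = 0.0461). By edgeR 0 were called, with an unadjusted p under 0.05 for 2, and DESeq2 called 1. The calls of srp and NimC1 were not followed over the fits that left out libraries. Apart from the values given with the covariate and without these libraries, the part of other tissues in the glial changes was not tested.

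**Figure D5:**
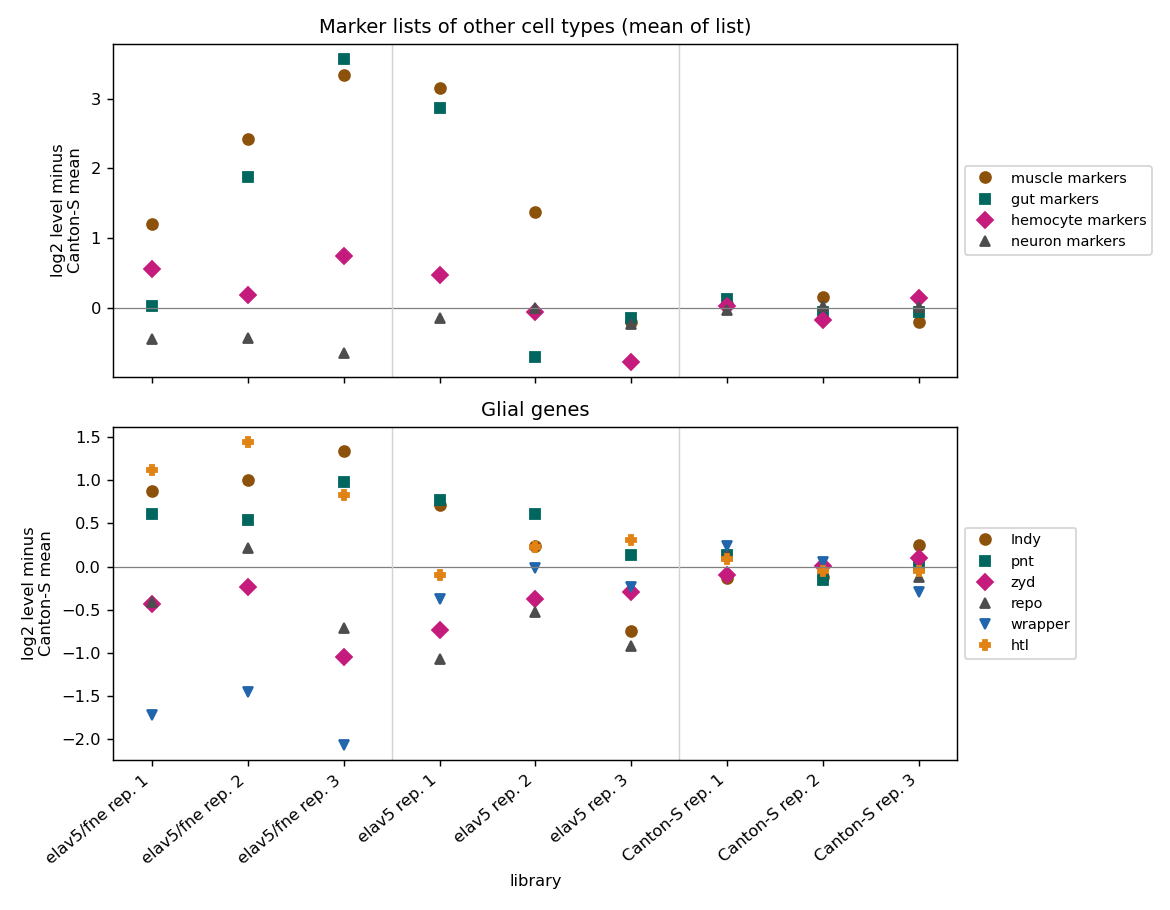
Log2 level minus the Canton-S mean (vertical axes) in each of the 9 libraries (horizontal axis) for 4 marker lists of other cell types (upper panel, mean over each list) and for 6 glial genes (lower panel). The muscle and gut lists are highest in elav5/fne replicate 3 and elav5 replicate 1, where Indy and pnt are also highest and repo and zyd lowest within their genotype.

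By pattern over the 9 libraries, the genes most like repo were CG31550, CG18335 and aus, with a root mean square difference of 0.194, 0.197 and 0.199 on the centred log2 scale, among the 5983 genes that averaged 10 normalised CPM or more. Like repo, each had its lowest mean in elav5, which follows from how they were picked. CG31550 averaged 41.2 normalised CPM in elav5/fne, 25.4 in elav5 and 45.9 in Canton-S. Among the members themselves the closest patterns were those of alrm and zyd, with a difference of 0.23, of repo and zyd, with 0.33, and of Indy and loco, with 0.35. These are descriptions over 9 libraries that share genotype, depth and tissue makeup.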

How the data were processed

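Total RNA (40 ng a library) was turned into 3'-end libraries with a QuantSeq REV kit, per the labels' protocols, and the submitters' processing notes name the build dm6. The sources used here do not name the aligner, the counting or its use of strand. The deposited table is named as CPM but holds a scaled signal: the authors divided whole reads per gene by a size factor for each library. Dividing each column by its smallest step gave whole reads within 0.1 for 100% of its values, and these recovered read counts from the deposited table were used for edgeR and DESeq2.

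Columns were matched to samples by name, with 9 libraries in 3 genotypes. Gene IDs were given symbols through RefSeq and the BDGP6.54 annotation; 17251 of 17421 matched, and older symbols were looked up among synonyms. Values were rescaled to a mean column total of 1000000 and tested with limma 3.58.1 in R 4.3.3 (trended variance, all 9 libraries, pseudocount 1, mean of at least 1, Benjamini-Hochberg over 9384 genes), after a test on simulated data. An exact permutation test of 3 against 3 cannot go below p = 0.1. Alternatives used edgeR 4.0.16, DESeq2 1.42.0, other scalings, pseudocounts, filters, a replicate block, a muscle covariate and leaving out libraries. From each list, up to 4 genes are named by lowest limma p for elav5/fne against Canton-S, plus genes chosen after their values were seen, which include those named to spell out a count of 5 or fewer. The members and lists were chosen with earlier results of these data known. SEs and p-values rest on the spread between libraries, and counting error on the 15241461 to 18822734 reads a library. Reads carry no molecular identifiers here, so the limit of 3 reads covers counting error only.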

Additional observations from a re-analysis of the deposited data

How the results depend on the processing

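Of the 10 glial genes, wrapper and htl kept their calls in elav5/fne against both other genotypes in all 22 alternatives, and loco kept its call against elav5 in all 22. In elav5/fne against Canton-S the number of members called was 6, became 2 with the muscle level as a covariate, and ran from 3 to 7 when 1 library was left out, with 3 without elav5/fne replicate 3 or without Canton-S replicate 2. In elav5 against Canton-S it was 1, against 0 with no filter, 0 by edgeR, 2 by DESeq2, 3 with scaling to the library total, and 0 to 2 with 1 library left out, with 0 without elav5/fne replicate 1 or any 1 Canton-S library. Of all genes, 1428 were called in elav5 against Canton-S, 2145 by DESeq2 and 707 to 1539 with 1 library left out, the lowest without Canton-S replicates 1 (707) and 2 (732). The deviations of same-numbered libraries had correlations of -0.70 to 0.20. The muscle and gut differences between libraries enter these values, so they cannot show whether the replicate numbers share a batch. With a replicate block 909 genes were called in elav5 against Canton-S. The calls of zyd in elav5/fne against Canton-S and of Indy in elav5/fne against elav5 were then lost (adjusted p = 0.0706 and 0.0815). The median change of all genes in elav5/fne against Canton-S was 0.15, and 0.02 under TMM scaling; in elav5 against Canton-S it was -0.12 with scaling to the library total.

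Changes of sign arose only among values that were not called. With the muscle covariate the log2 change became 0.12 for alrm and -0.44 for Indy in elav5 against Canton-S, 0.0073 for alrm, 0.31 for Eaat1, 0.31 for Gs2, 0.16 for e and -0.24 for SERCA in elav5/fne against Canton-S, and 0.046 for zyd in elav5/fne against elav5. Without both libraries rich in muscle and gut reads it was 0.0016 for alrm and -0.25 for Indy in elav5, and 0.048 for Eaat1 in elav5/fne, against Canton-S. For Indy in elav5 it was -0.079 with scaling to the library total. Cyp4g15 in elav5/fne stood at -0.12 under TMM, -0.097 under median of ratios, -0.051 under the library total, -0.12 by edgeR and -0.092 by DESeq2. Over the fits that left out 1 library the ranges were -0.24 to 0.014 for alrm and -0.25 to 0.48 for Indy in elav5, -0.097 to 0.048 for Eaat1 and -0.083 to 0.16 for Cyp4g15 in elav5/fne, and -0.28 to 0.13 for zyd in elav5/fne against elav5. The cause was not tested. gcm and gcm2 rest on 3 to 83 reads a library, which limits any statement on them.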
